A study of Mus musculus with 7 samples.

Results

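Wild-type group 2 innate lymphoid cells (ILC2s) were profiled here against a reference RNA made from a mixture of other mouse cells. The 4 wild-type samples of the series were taken by their genotype label, out of 7 samples in all. The 3 samples labelled Gfi1 knockout served only for comparison with them. All mice had received IL-25 once a day for 4 days, and ILC2s were sorted from mesenteric lymph nodes on day 5 as lineage-negative cells positive for Sca-1, ICOS, CD127 and c-Kit. Each wild-type sample pooled the cells of 3 Gfi1+/+ mice. Each sample labelled knockout pooled 6 mice homozygous for Gfi1GFP, a loss-of-function allele with a GFP cassette in the Gfi1 locus, present in all cells of the animal. Both genotypes were then kept in culture for 6 days, where IL-2 and IL-25 were each given at 50 ng/ml and IL-7 at 10 ng/ml, so the RNA describes expanded and stimulated cells, and no unstimulated ILC2 was measured here. The age, sex and strain of the mice are not given in the labels.

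ILC2s are tissue lymphocytes that lack antigen receptors and respond to alarm cytokines such as IL-25 and IL-33. They are known for secreting IL-5, which recruits eosinophils, and IL-13, which drives mucus and smooth muscle responses at barrier surfaces. Their identity depends on the transcription factors GATA3 and RORα, and IL-2 and IL-7 support their survival and growth through STAT5.

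RNA from the ILC2s was labelled with Cy5 (red) and the reference RNA, Stratagene Universal Mouse Reference, with Cy3 (green), and both were hybridised to the same Agilent array. Every value below, unless a channel is named, is a log2 ratio of ILC2 over reference, so that 1 stands for a 2-fold higher signal in ILC2s. The dyes were the same way round on every array, so a dye bias of a probe cannot be told apart from a difference between the RNAs. A ratio also depends on how much of a transcript the reference holds, so the order of ratios among genes is not the order of their levels. Between 67.4% and 80.5% of the probes lay well above background in the ILC2 channel of a wild-type array, no spot was saturated, and pairs of wild-type arrays correlated at 0.969 to 0.979 over the tested genes. The number of arrays limits the precision. The labels give separate pools of mice, and nothing in them says more about how independent the 4 cultures were.

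The type 2 cytokine genes Il4, Il13 and Il5 were all called higher in ILC2s, with values in the paragraphs that follow. They lie close together on chromosome 11, where binding of GATA factors has long been studied. The 250 bases before each annotated start are printed because these genes were high together and the GATA factor gene Gata3 was high with them. The sequences are from RefSeq (GRCm38.p6), 5′ to 3′ on the gene's strand. Capitals mark matches to the GATA motif, searched on both strands as the letters GATA with A or T before them and A or G after them (AGATAA, for example).
Il4 start farther upstream, chr11:53618666-53618915, minus strand: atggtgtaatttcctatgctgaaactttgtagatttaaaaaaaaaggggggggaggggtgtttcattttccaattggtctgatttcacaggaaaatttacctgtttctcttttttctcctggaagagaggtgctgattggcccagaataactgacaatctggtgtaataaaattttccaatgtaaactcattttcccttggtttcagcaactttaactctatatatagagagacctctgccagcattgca
Il4 start farther downstream, chr11:53617339-53617588, minus strand: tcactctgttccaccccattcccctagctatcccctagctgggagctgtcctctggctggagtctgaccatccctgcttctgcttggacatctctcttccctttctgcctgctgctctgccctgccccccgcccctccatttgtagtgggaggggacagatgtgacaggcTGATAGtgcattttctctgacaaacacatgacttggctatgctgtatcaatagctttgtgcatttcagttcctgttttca
Il13, chr11:53634703-53634952, minus strand: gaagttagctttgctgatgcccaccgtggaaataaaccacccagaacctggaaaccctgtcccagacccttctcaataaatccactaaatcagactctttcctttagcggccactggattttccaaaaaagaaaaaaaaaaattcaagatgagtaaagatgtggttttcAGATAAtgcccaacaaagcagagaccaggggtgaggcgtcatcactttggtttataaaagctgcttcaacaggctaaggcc
Il5, chr11:53720544-53720793, plus strand: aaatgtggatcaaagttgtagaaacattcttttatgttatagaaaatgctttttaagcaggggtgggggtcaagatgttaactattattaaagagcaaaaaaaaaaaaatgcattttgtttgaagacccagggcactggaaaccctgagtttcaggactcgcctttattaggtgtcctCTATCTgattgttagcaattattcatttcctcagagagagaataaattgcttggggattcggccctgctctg
The Il13, Il5 and downstream Il4 windows each held 1 match, and the Il4 window farther upstream held none. Of the 32851 promoter windows of this length in the table, 8718 (26.5%) held at least 1 match. Of the other windows searched, those of Calca and Csf2 had 1 match each. Il1rl1, which encodes the IL-33 receptor ST2, has 2 annotated starts, and the farther upstream window had 5 matches and the other 1. These letter matches are a description of the windows and not evidence of binding.

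A change was called where limma's treat test put the ratio beyond a minimum log2 change of 1 in either direction at an adjusted p under 0.05. Of 25194 tested genes, 3418 (13.6%) were called higher in ILC2s and 4517 (17.9%) lower, and the median ratio of all tested genes was 0.26. After normexp background correction and loess normalization the counts were 2084 higher and 3898 lower and the median 0.04, so the number of higher genes depended on the scaling. Among the 22107 genes measured in both channels, 2965 (13.4%) were higher and 3300 (14.9%) lower. A further 1348 genes were well above background on at least 3 arrays in ILC2s only, and 1739 in the reference only. Genes of these last groups passed the filter through the channel where they were high, and their fold is not exact. Of the genes measured in both channels, 56 were higher and 76 lower at 64-fold or more, and 10 and 3 at 256-fold or more. Each call rests on 1 probe. Of 1490 called genes with several probes, 291 had another probe of opposite sign, and 64 had one beyond a log2 ratio of 1 the other way. Every list count below is to be read beside the shares over all tested genes, 13.6% higher and 17.9% lower.

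**Figure D1:**
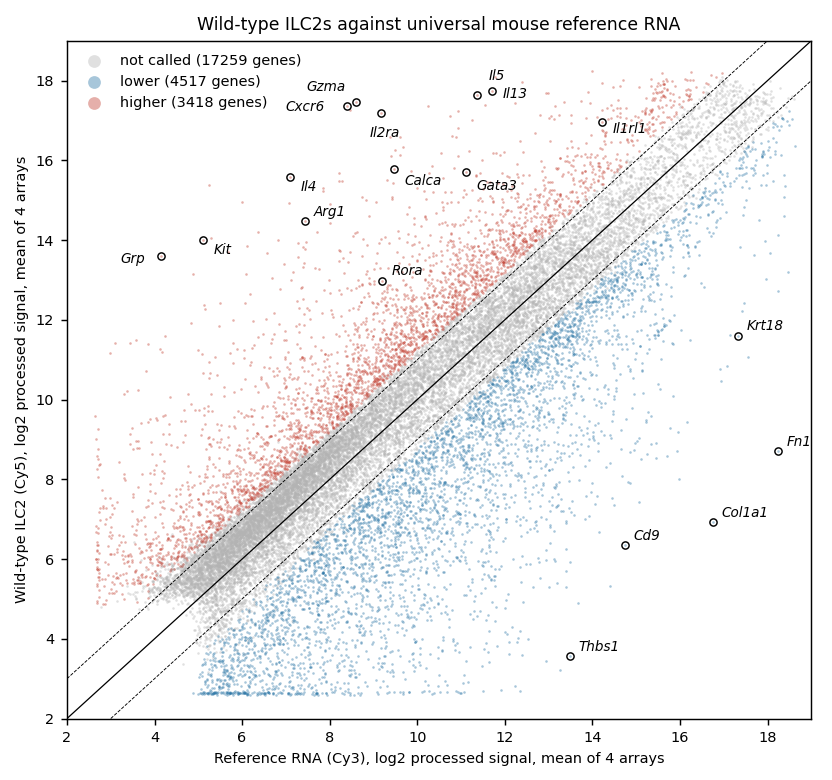
Mean log2 processed signal of 25194 tested genes in reference RNA (x axis, Cy3) and in wild-type ILC2s (y axis, Cy5) over 4 arrays, with 3418 genes called higher in red, 4517 called lower in blue and 17259 not called in grey. The solid line marks equal signals and the dashed lines a log2 ratio of 1 either way; the named ILC2 genes lie far above the lines, and Col1a1, Fn1 and Cd9 far below.

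All 8 genes chosen as ILC2 markers were called higher. Il4 had Cy5 signals of 47694, 46537, 47969 and 55538 on wild-type arrays 1 to 4 against Cy3 signals of 144, 103, 120 and 194. Its ratio was 8.50 ± 0.29 (SD, n = 4), or 362-fold (SE 0.12, adjusted p = 7.25e-07). The ILC2 signal varied little between the 4 pools, and no ILC2 value came near a reference value.

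Il5, the eosinophil growth factor, gave Cy5 signals of 197840, 169734, 223017 and 237393, and a ratio of 6.27 ± 0.29 (SD, n = 4), or 77.4-fold. Il13 gave 189869, 179199, 290800 and 236736, and a ratio of 6.04 ± 0.20 (SD, n = 4), or 65.9-fold. Both genes were well separated from the reference on every array. Their reference signals were nevertheless above background, at 1786 to 3991 for Il5 and 2256 to 5007 for Il13.

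Arg1, the arginase that consumes arginine in type 2 responses, had a ratio of 7.05 ± 0.19 (SD, n = 4), or 133-fold. Calca, which encodes the neuropeptide CGRP, had a ratio of 6.33 ± 0.12 (SD, n = 4), or 80.3-fold. A second Calca probe was above background in ILC2s only. The transcription factor gene Gata3 was at 4.47, 4.53, 4.77 and 4.65 on the 4 arrays, or 24.3-fold. Rora, encoding RORα, was at 3.71, 3.78, 3.69 and 3.93, or 13.7-fold. All of these values lay well above 1 on every array.

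Il1rl1 had the smallest ratio of the 8 markers, 2.74 ± 0.13 (SD, n = 4), or 6.69-fold, although its ILC2 signals ran from 88895 to 152080. Its reference signals were high as well, from 14789 to 22471. A second Il1rl1 probe, above background in both channels on all 4 arrays, read -0.66 ± 0.23 (SD, n = 4). Another read 3.73 ± 0.24 (SD, n = 4). The probes of this gene therefore disagreed in sign, and which transcript form each reads was not examined.

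In the samples labelled Gfi1 knockout the targeted gene went against the label. Gfi1 was at 1.95, 1.97, 2.43 and 2.06 on the wild-type arrays and at 4.35, 4.40 and 4.39 on the arrays labelled knockout, a difference of 2.28 (limma, adjusted p = 0.000281), and the groups did not overlap. Its Cy5 signal alone was 3.94-fold higher in the samples labelled knockout. Where the Gfi1 probe lies relative to the GFP cassette is not given in the sources used here, so this probe does not check the label, and each genotype direction rests on the labels.

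**Figure D2:**
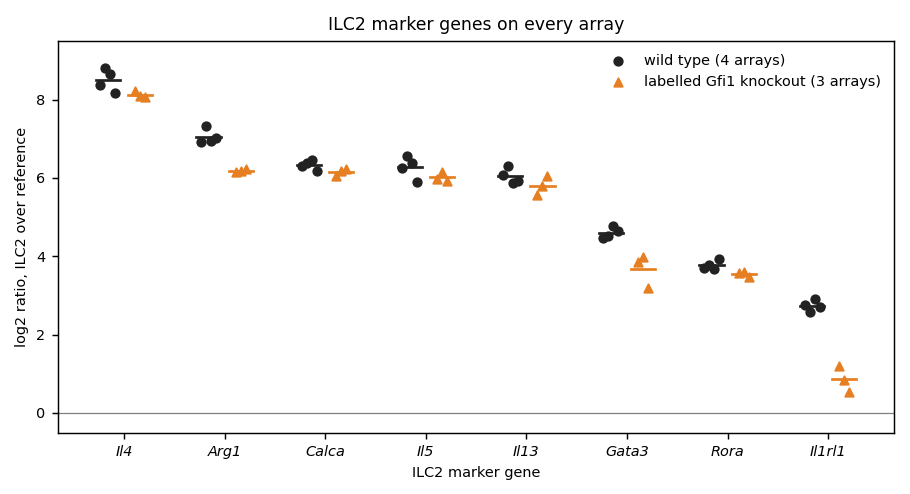
Log2 ratio of ILC2 over reference (y axis) for the 8 marker genes (x axis) on each wild-type array (circles) and each array labelled Gfi1 knockout (triangles), with horizontal bars at the group means. All 8 genes lie above 0 on all 7 arrays, and Il1rl1 shows the widest gap in mean ratio between the genotypes, 2.74 against 0.86. In the Cy5 signal alone the gap was wider for Arg1 and Calca than for Il1rl1.

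The reference RNA is the same on every array, yet the Cy3 signal of some of the strongest ILC2 genes moved between arrays. With each channel centred on its array's median, the 51 genes with a ratio above 6 in both measured channels had a median SD of the Cy3 signal of 0.23 over the wild-type arrays. For the 12891 genes with ratios between -1 and 1 it was 0.10, and for the 62 genes at -6 or below it was 0.07. Genes with high ratios can be dim in Cy3, as Il4 was with a mean centred Cy3 signal of -1.78. The SDs were not compared at matched Cy3 signal, so their order may reflect brightness and cannot be tied to the ratio. The centred Cy3 signal of Il7r was -2.53, -2.37, -1.25 and -1.04 on wild-type arrays 1 to 4, while its Cy5 signal was 5.53, 5.82, 6.77 and 6.44. For Il7r, then, both channels were high on arrays 3 and 4 and low on arrays 1 and 2.

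The arrays labelled knockout, which carried the same reference RNA, showed this for Arg1. Its mean centred Cy3 signal was -1.45 in the wild-type arrays and -3.73 in those labelled knockout, and its Cy5 signal was 5.68 and 2.55. For Calca the arrays labelled knockout differed from the wild-type arrays by -1.69 in Cy3 and by -1.85 in Cy5. Cysltr2, the cysteinyl leukotriene receptor gene, had the larger genotype gap in Cy5 (5.20 and 1.93) but a steady Cy3 signal (-2.06 and -2.03). Why the reference signal of some genes moved was not tested. Il13 had its highest Cy3 signal (3.47) and highest Cy5 signal (9.41) on wild-type array 3 and its lowest of both (1.71 and 7.84) on array 3 of those labelled knockout. For H2-Ab1, an MHC class II chain, the arrays labelled knockout differed by -1.72 in Cy3 and by -2.64 in Cy5. The ratios of Arg1, Calca, Il7r, Il13 and H2-Ab1 accordingly rest on a Cy3 signal that was not constant across arrays.

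The 8 marker genes also had positive mean ratios in the samples labelled knockout, from 0.86 for Il1rl1 to 8.12 for Il4. Across the genome, 585 of 25346 tested genes (2.31%) were higher in the samples labelled knockout and 763 (3.01%) lower by limma's moderated test without a minimum change, 5.32% in all. Of the 8 markers, 3 were called lower in those samples and none higher. Il1rl1 differed by -1.88 (adjusted p = 0.00139), Gata3 by -0.92 (adjusted p = 0.0369) and Arg1 by -0.86 (adjusted p = 0.00897). In the Cy5 channel alone the difference was -3.14 for Arg1, -1.85 for Calca, -1.49 for Il1rl1, -0.86 for Gata3 and -0.81 for Il5. Calca and Il5 were then also called (adjusted p = 0.000474 and 0.0383). Slides 1 and 2 each held both genotypes, but with 1 wild-type array each. Slide 1 held wild-type array 4 and array 1 of those labelled knockout. Slide 2 held wild-type array 1 and arrays 2 and 3 of those labelled knockout. Within slides 1 and 2 the difference was -1.50 and -2.08 for Il1rl1, -0.80 and -0.87 for Gata3 and -0.87 and -0.71 for Arg1. With slide as a block, Il1rl1 remained called (adjusted p = 0.0311), while Gata3 (adjusted p = 0.308) and Arg1 (adjusted p = 0.142) did not.

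Of 24 tested genes on a list of ILC2 cytokines and secreted effectors, 16 were higher and 1 was lower, with a median of 4.89 against 0.26 over all tested genes. Csf2, encoding the growth factor GM-CSF, was at 7.65, 8.05, 7.78 and 7.88, or 229-fold. Penk, the precursor of the enkephalin opioid peptides, was at 7.14, 7.38, 7.85 and 7.10, or 165-fold. The 4 pools were close in ratio for Csf2. The Penk ratio was highest in pool 3, and its centred Cy5 signal ran from 5.91 in pool 4 to 7.23 in pool 3.

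Among the other cytokines, Il6 was 49.1-fold and Lif 44.3-fold higher, and the epithelial growth factor gene Areg was 29.0-fold higher (4.86 ± 0.14, SD, n = 4). Il9 was above background in ILC2s on all 4 arrays and in the reference on none, which makes it at least 25.0-fold higher. Its ILC2 signal differed between pools, at 1233, 1683, 406 and 419, so arrays 1 and 2 were high and arrays 3 and 4 low. Hbegf, the heparin-binding EGF-like growth factor, was the member called lower, at -3.45 ± 0.20 (SD, n = 4). Il2, which the culture supplied, was not called at 0.66 ± 0.30 (SD, n = 4).

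On the chromosome, Il4, Il13, Rad50, Il5 and Irf1 are neighbours in that order, and Csf2 and Il3 lie farther along. The genes of this stretch are named for their place, after their values were seen. Rad50, a DNA repair gene whose 3′ part is known to hold the locus control region, was higher at 2.32 ± 0.11 (SD, n = 4), and Irf1, an interferon-response factor, at 1.70 ± 0.13 (SD, n = 4). Kif3a on the Il4 side was not called (-0.88 ± 0.14, SD, n = 4), nor was Il3 (0.83 ± 0.04, SD, n = 4). Between Irf1 and Csf2, Pdlim4 and P4ha2 were called lower, at -4.27 and -1.56, so the stretch held genes called in both directions.

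**Figure D3:**
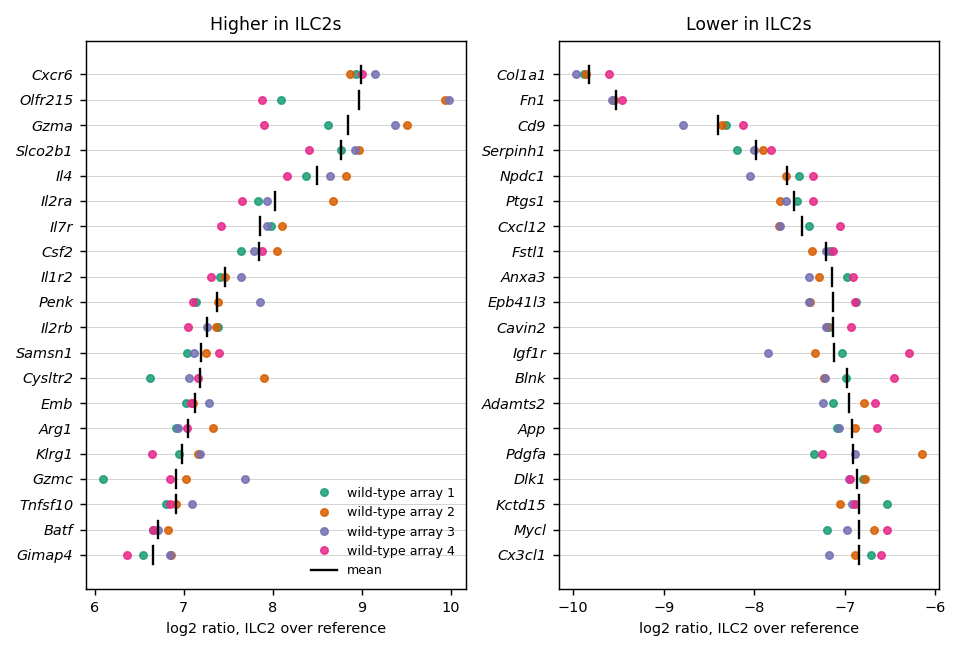
Log2 ratios on wild-type arrays 1 to 4 (coloured points) with their mean (black bar) for the 20 genes with the highest ratios, left, and the 20 with the lowest, right, among named genes measured in both channels on all 4 arrays. Each gene is shown by 1 probe. Cxcr6 leads the left panel at 8.98 and Col1a1 the right panel at -9.83. Olfr215 and Gzma scatter most among the higher genes.

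Of 33 tested surface receptor genes on the ILC2 list, 27 were higher and none was lower by limma's treat test, with a median of 4.10. The genes for the 4 positive sorting markers were all called: Kit (c-Kit, 8.91), Il7r (CD127, 7.86), Icos (6.37) and Ly6a (Sca-1, 5.19). The Kit reference signal was above background on 3 of 4 arrays. A second Icos probe read 9.87. These genes encode the proteins used to choose the cells, so their high levels are not independent of the sort. The RNA was taken after 6 days of culture, and the parts of sort and culture were not tested. The receptor chains that bind the supplied IL-2 were also high, Il2ra at 8.02 ± 0.45 (SD, n = 4) and Il2rb at 7.26 ± 0.16 (SD, n = 4). The uncentred Cy5 signal of Il2rb was nearly the same on all wild-type arrays, at 45249, 45940, 46018 and 45023. Centred on each array's median it was 6.61, 6.95, 6.75 and 6.42.

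The inhibitory lectin gene Klrg1 was 126-fold higher, and the leukotriene receptor gene Cysltr2 was at 7.18 ± 0.53 (SD, n = 4). The inhibitory receptor gene Cd200r1 was also called higher, but its reference signal ran from 17.4 to 161 and was not above background on array 1. Il17rb, the binding chain for the IL-25 used in vivo and in culture, was 14.1-fold higher (3.58, 3.81, 3.91 and 3.98). Thy1, a lymphocyte surface glycoprotein, was not called and lay below the reference at -0.81 ± 0.42 (SD, n = 4). Ptgdr2, encoding the prostaglandin D2 receptor CRTH2, was above background on 2 of 4 arrays and was not tested.

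Cxcr6 encodes a homing receptor for the chemokine CXCL16. With 1 probe standing for each gene, it had the highest ratio of any named gene measured in both channels on all 4 arrays. The ratio ran from 8.86 on array 2 to 9.15 on array 3, or 507-fold. A second Icos probe, above background in both channels on all 4 arrays, read higher at 9.87. Of 26 chemokine and homing genes, 9 were higher and 1 lower, against 13.6% and 17.9% over all tested genes, and the median was 0.55. Ccr4 was at 4.36 ± 0.16 (SD, n = 4) and Selplg, the selectin ligand PSGL-1, at 5.04 ± 0.11 (SD, n = 4). Ccr2 and Ccr1 were above background in ILC2s only and were at least 5.98-fold and 5.09-fold higher. Ccr10 was the member called lower, at -2.08 ± 0.50 (SD, n = 4).

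Of 8 tested receptors for neural signals, 3 were higher, against 13.6% of all tested genes. Nmur1, the receptor for neuromedin U, was at 6.30, 6.57, 6.79 and 6.27, or 89.4-fold. Vipr2, a receptor for vasoactive intestinal peptide, was 12.5-fold higher. A second Vipr2 probe was above background in ILC2s only, and another was above background in neither channel. Calcrl, the CGRP receptor subunit, was above background in ILC2s on 3 of 4 arrays and never in the reference, with dim ILC2 signals of 26.9 to 59.8. It was at least 1.5-fold higher.

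In all, 249 tested genes were above background in ILC2s on all 4 arrays and had no probe above background in the reference. The highest bound with a gene symbol belonged to Grp, gastrin-releasing peptide, with Cy5 signals of 9439, 12716, 18440 and 10886 against Cy3 signals of 13.8 to 26.3, so it was at least 405-fold higher. Pcsk1, a protease that cleaves prohormones, was at least 74.7-fold higher. The olfactory receptor gene Olfr214 was at least 86.7-fold higher. Its neighbour by name, Olfr215, was measured in both channels and was 501-fold higher, a value that rests on a dim and varying reference signal. Transcripts of near-identical genes can hybridise to the same probe, so the identity of the hybridising transcript is uncertain for Olfr214 and Olfr215.

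Of 26 tested transcription factor genes linked to ILC2s, 19 were higher and 2 lower, with a median of 2.09. Batf, an AP-1 partner, was at 6.66, 6.82, 6.71 and 6.65, or 105-fold, and was the steadiest of the 20 genes with the highest ratios. Id2, an inhibitor of E proteins needed by all innate lymphoid cells, was 20.2-fold higher. Bcl11b was at 2.08 ± 0.31 and Gfi1, a repressor whose loss defines the other genotype, at 2.10 ± 0.22 (both SD, n = 4). Ets1, Maf and Runx3 read 4.04, 3.99 and 3.95, but second probes read 0.28 for Ets1 and 1.11 for Runx3.

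Tcf7, which encodes TCF-1, was called lower at -4.66, -2.91, -5.20 and -3.99. A second probe read -2.16. Runx1 was called lower at -2.11 ± 0.20 (SD, n = 4) on the brighter probe, while a second probe read 1.74 ± 0.21 (SD, n = 4), so the direction for Runx1 depends on the probe.

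Of 16 targets of IL-2 and STAT5 signalling, all tested, 11 were higher and none was lower by limma's treat test, with a median of 2.36. Cish, a feedback inhibitor of STAT5, was at 5.64 ± 0.17 (SD, n = 4), or 49.8-fold. Socs2, a related inhibitor, was at 4.67 and the survival kinase gene Pim2 at 4.88. Osm, which encodes oncostatin M, was at 5.45 ± 0.35 (SD, n = 4).

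Of 12 tested genes of cytotoxic granules, usually linked to killer cells, 7 were higher and 1 was lower, with a median of 1.54. Gzma, a serine protease of cytotoxic granules, had Cy5 signals of 165823, 165369, 302063 and 127048, and a ratio of 8.85 ± 0.74 (SD, n = 4), or 460-fold. Gzmb was 79.5-fold and Gzmc 120-fold higher. Srgn, the granule proteoglycan serglycin, was at 5.84 ± 0.24 (SD, n = 4). The pore-forming perforin gene Prf1, named after its value was seen, was not called at 0.39 ± 0.17 (SD, n = 4), and Gzmm was called lower at -2.05 ± 0.20 (SD, n = 4).

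Ifng, the signature cytokine of type 1 responses, was above background in ILC2s on every array and in the reference on none, and was at least 89.3-fold higher. Its ILC2 signals were 4046, 2967, 1151 and 4142, lowest in pool 3. Tbx21, the type 1 master regulator T-bet, was not called at 0.84 ± 0.10 (SD, n = 4), with ILC2 signals of 94.2 to 159. On the list for NK cells, ILC1s and type 1 responses, 8 of 18 tested genes were higher and none lower by limma's treat test. Klrk1 and Ncr1, receptors that mark NK cells, were above background in ILC2s on no array.

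On the ILC3 and type 17 list 4 of 15 tested genes were higher and 2 lower, against 13.6% and 17.9% over all tested genes. The 4 higher genes were Kit, Lif, Il12rb1 and Tmem176a, of which Kit was a sorting marker. Il17a was not called at 1.39 ± 0.44 (SD, n = 4).

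**Figure D4:**
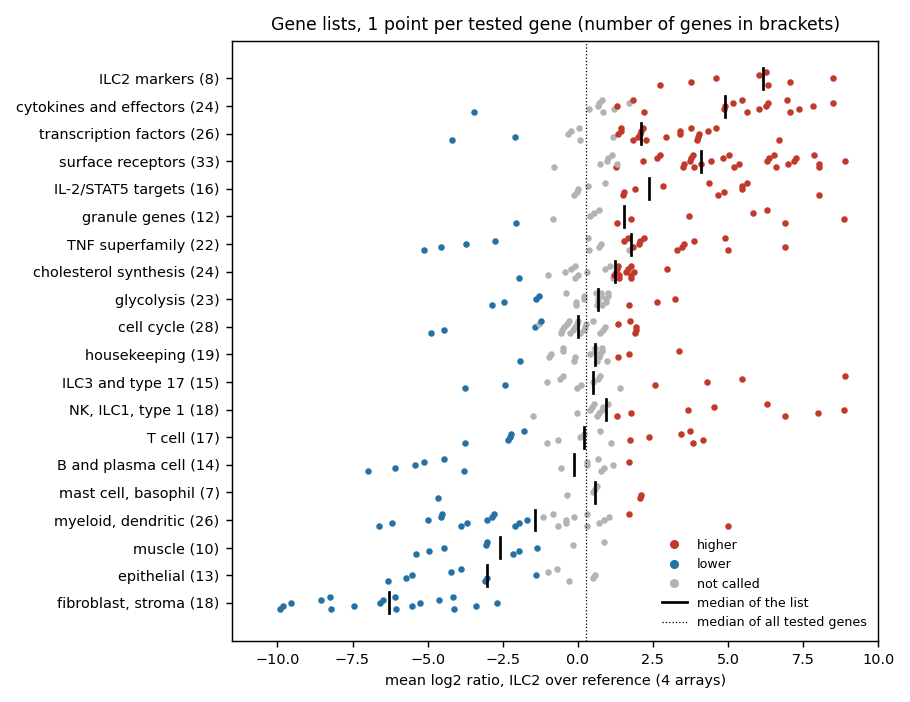
Mean log2 ratio over 4 wild-type arrays (x axis) for every tested gene of 20 gene lists (rows, number of tested genes in brackets), with genes called higher in red, lower in blue and not called in grey. Black bars mark list medians and the dotted line the median of all tested genes, 0.26; genes above background in a single channel are included, and the medians run from 6.16 for the ILC2 markers to -6.28 for the fibroblast list.

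Of 17 tested T cell genes, 6 were higher and 5 lower, and 1 of the lower had passed through the reference channel only. Zap70, a kinase of antigen receptor signalling, was 10.8-fold higher, and Cd3d, a T cell receptor subunit, was at 3.34, 3.12, 3.59 and 4.87, highest in pool 4. Cd3e, another subunit, was not called at -1.02 ± 0.05 (SD, n = 4), with ILC2 signals of 692 to 969. Lck was lower at -2.27 ± 0.27 and Cd5 at -2.23 ± 0.26 (both SD, n = 4). Cd2 and Cd6 were called lower, but other probes of both read above 0, at 0.39 and 0.87. Summed over the 17 genes, the Cy5 signal ran from 70025 (pool 2) to 112819 (pool 4). The summed signal of the 8 ILC2 markers was also lowest in pool 2 (604353) and highest in pool 4 (858030). The number above background was 16 or 17 on each array, and Trat1 was above background on none. Whether T cells contributed to these values was not tested.

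Of 26 tested genes of antigen-presenting and myeloid cells, 13 were lower and 2 higher. Of the 13, 6 had passed the filter through the reference channel only. The 17 genes measured in both channels had a median of -0.67, with 7 lower and 2 higher. Among them, H2-Ab1 was higher at 5.01 ± 0.16 (SD, n = 4), or 32.2-fold. Ctss, a protease that trims the class II invariant chain, was higher at 1.72 ± 0.06 (SD, n = 4). Cd74, that invariant chain, was lower at -1.95 ± 0.22 (SD, n = 4). Csf1r, which defines macrophages, was lower at -3.88 ± 0.37 (SD, n = 4) on its brightest probe, while others read -1.48 and 0.49. Fcgr1 and S100a8 were above background in ILC2s on no array. The number of the 26 genes above background ran from 16 in pool 2 to 24 in pool 4, and their summed Cy5 signal from 197610 to 301166 in the same pools. Over all probes the share above background was likewise lowest in pool 2 (67.4%) and highest in pool 4 (80.5%). The summed signal of the 8 ILC2 markers also ran from 604353 in pool 2 to 858030 in pool 4. These figures therefore do not show a difference in myeloid cells between the pools.

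B lineage genes were lower in 6 of 14 cases, of which 2 had passed through the reference channel only, and higher in 1. Blnk, the B cell linker protein, was at -6.97 ± 0.36 (SD, n = 4) and Jchain, the antibody joining chain, at -5.11 ± 0.16 (SD, n = 4). Cd79b, a B cell receptor subunit, was the higher member at 1.69 ± 0.10 (SD, n = 4). Of the mast cell and basophil list 7 genes were tested, 2 higher (Gata1 at 2.10, and Cpa3, whose reference was above background on 2 of 4 arrays) and 1 lower (Gata2, above background in ILC2s on 1 of 4 arrays). Neither was called higher after loess normalization. Fcer1a and Ms4a2, chains of the IgE receptor, were above background on no array.

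The 2 lowest ratios in the plot of the highest and lowest genes belonged to connective tissue genes. Each of the 18 fibroblast and stroma genes on the list was tested and called lower, with a median of -6.28. Of these, 13 were measured in both channels, with a median of -5.50, and the other 5 entered the test through the reference channel. Col1a1, the type I collagen chain, had Cy5 signals of 115, 110, 104 and 165 against Cy3 signals of 108215, 102198, 104517 and 128089. Its ratio was -9.83 ± 0.16 (SD, n = 4), or 909-fold lower, the lowest of any named gene measured in both channels on all 4 arrays. Fn1, encoding fibronectin, was 741-fold lower (-9.53 ± 0.05, SD, n = 4). The pools gave nearly the same value for both genes.

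Some matrix genes were not above background in ILC2s. Thbs1, thrombospondin, was above background in the reference on all 4 arrays and in ILC2s on none, and was at least 374-fold lower. Phldb2, a cytoskeletal scaffold gene, was at least 330-fold lower, and Wt1, the Wilms tumour factor, at least 177-fold. In all, 548 genes followed this pattern. Fbn1, Col5a2 and Postn, also of the extracellular matrix, were above background in ILC2s on no array. A bulk measurement cannot tell fewer cells of a type from less RNA per cell, and here the reference is itself a mixture.

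Serpinh1, the collagen chaperone, was at -7.98 ± 0.16 (SD, n = 4), Cd9, a membrane tetraspanin, at -8.40 ± 0.28 (SD, n = 4), and Cxcl12, a stromal chemokine, at -7.47 ± 0.32 (SD, n = 4). Adamts2, a procollagen protease, read -6.96 on the brighter probe but 0.22 on another. Keratin and junction genes of epithelia were lower in 8 of 13 cases and higher in none by limma's treat test, but 4 of the 8 had passed the filter through the reference channel only. The 9 measured in both channels had a median of -1.0. Krt18, a simple-epithelium keratin, was at -5.71 ± 0.07 (SD, n = 4), yet its ILC2 signal of 2893 to 3506 was far above background. Muscle genes were lower in 8 of 10 cases, of which 2 had passed through the reference channel only. The 8 measured in both channels had a median of -2.05. Of 11 tested imprinted and oncofetal genes 4 were lower, with Dlk1 at -6.87 ± 0.10 and Hmga2 at -5.82 ± 0.08 (both SD, n = 4), while second probes read -3.61 and -2.42.

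Lipid mediator genes were divided by enzyme. Alox5, the 5-lipoxygenase that starts leukotriene synthesis, was 46.8-fold higher (5.72, 5.91, 5.32 and 5.24). Its membrane partner Alox5ap was lower at -2.94 ± 0.28 (SD, n = 4). Both cyclooxygenase genes were lower, Ptgs1 at -7.56 ± 0.16 and Ptgs2 at -4.52 ± 0.43 (both SD, n = 4), while the prostacyclin receptor gene Ptgir was higher at 3.03 ± 0.09 (SD, n = 4). Over the 14 genes, 3 were higher and 4 lower, against shares of 13.6% and 17.9% over all tested genes.

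Of 22 tested TNF superfamily genes 13 were higher and 4 lower. Of these, 3 of the higher were above background in ILC2s only and 2 of the lower in the reference only, and the 17 measured in both channels had a median of 1.72. After loess normalization 8 were higher. Tnfsf10, the death ligand TRAIL, was 120-fold higher (6.80, 6.91, 7.09 and 6.85). The TNF receptor gene Tnfrsf1b was higher at 3.47 ± 0.14 and its counterpart Tnfrsf1a lower at -5.12 ± 0.17 (both SD, n = 4). A second Tnfrsf1a probe read -3.10. Ltbr, the lymphotoxin receptor, was lower at -3.73 ± 0.23 (SD, n = 4), while its ligand gene Lta was higher at 4.91 ± 1.76 (SD, n = 4).

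Of 28 tested cell cycle genes 5 were higher and 4 lower, near the shares of 13.6% and 17.9% over all tested genes, with a median of -0.000947. The reference comes from growing cell lines, which is background from the supplier. Mki67 was lower at -1.24 ± 0.16 and Top2a at -1.42 ± 0.19 (both SD, n = 4). The cyclins differed: Ccnd1 was lower at -4.90 ± 0.30 and Ccnd2 higher at 1.89 ± 0.09 (both SD, n = 4). Cdkn2a, the p16 and p19 locus, was lower at -4.46 ± 0.24 (SD, n = 4).

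Of 24 cholesterol synthesis genes 13 were higher and 1 lower, and the median was 1.25. After loess normalization, or with each array centred on its median, 8 of these genes were higher. Srebf2, the regulator of the pathway, was at 1.67 on its brighter probe and at -1.44 on a second. Of 23 glycolysis genes 3 were higher and 4 lower, again near the shares over all tested genes, with Slc2a3, a glucose transporter, at 3.25 ± 0.19 and the transporter Slc2a1 at -1.40 ± 0.14 (both SD, n = 4). Housekeeping genes had a median of 0.57, with 3 of 19 higher and 1 lower, against shares of 13.6% and 17.9% over all tested genes. Actb was at 0.56 ± 0.16 and Gapdh at 0.79 ± 0.16, while B2m, the MHC class I light chain, was at 3.37 ± 0.27 (all SD, n = 4). Other Gapdh probes read 0.35 to 2.26.

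The 4 wild-type pools were close to one another. Over 20641 genes measured in both channels on all arrays, the median SD of the ratio was 0.14, and 24 genes had an SD above 1. For the Cy5 signal alone, not centred on each array's median, the median SD was 0.25. With that centring it was 0.15 for the 12891 genes with ratios between -1 and 1. Among named genes measured in both channels on all arrays, the largest SD was that of Xist, the RNA of the inactive X chromosome, at 0.30, 0.08, 4.10 and 3.97 on arrays 1 to 4. Its Cy5 signals were 154, 81.6, 2035 and 2184. The Y-linked gene Ddx3y was above background in pools 1 and 2, with signals of 2843 and 1762, and not in pools 3 and 4. Pools 1 and 2 thus had high Ddx3y and low Xist, and pools 3 and 4 the reverse. In the group labelled knockout, arrays 1 and 2 had the first pattern and array 3 the second.

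Other variable genes followed a different order. Ccl6, a myeloid chemokine, was at 4.04, 1.27, -0.998 and 1.99, and Wfdc17, a secreted antiprotease-like protein of myeloid cells, at 1.48, -0.67, -1.89 and 0.67. The inhibitory Fc receptor gene Fcgr2b ran from -5.78 in pool 3 to -3.28 in pool 1, and the C-type lectin gene Clec4d from -6.55 in pool 3 to -3.84 in pool 1. All 4 genes were highest in pool 1 and lowest in pool 3. The number of myeloid list genes above background was 22 in pool 1 and 17 in pool 3, with summed Cy5 signals of 243810 and 255492. Over all probes the share above background was also higher in pool 1 (76.0%) than in pool 3 (71.8%). The part of myeloid cells in these values was not tested.

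Lta was at 6.24, 5.46, 2.32 and 5.63, so pool 3 was low. For Ifi209 and Stxbp6 the reference channel varied more than the sample channel. The Cy3 signal of Ifi209 ran from 49.4 to 236 and that of Stxbp6 from 37.9 to 313. Olfr215 likewise had Cy3 signals of 35.8 to 113, and its ratio ran from 7.88 to 9.97.

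**Figure D5:**
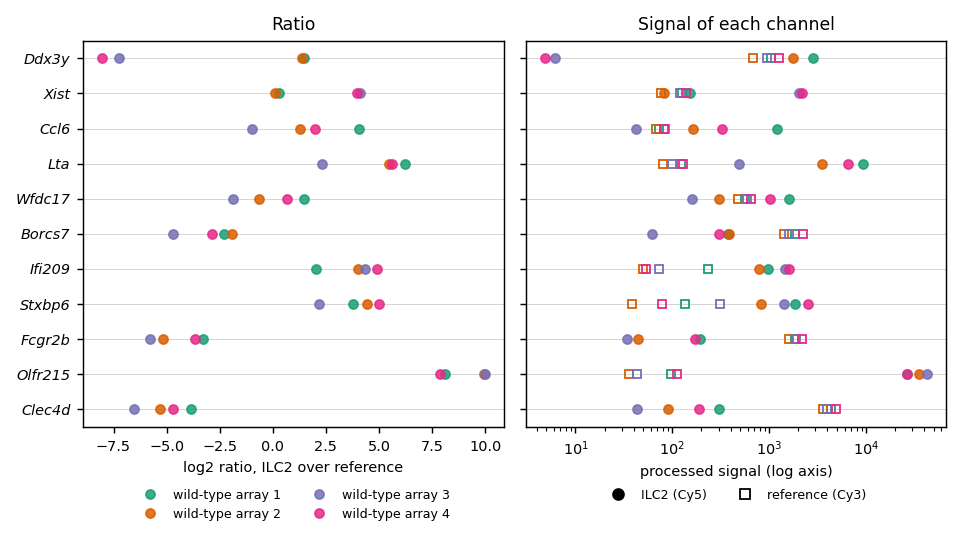
Log2 ratios (left) and processed signals on a log axis (right, filled circles for ILC2 in Cy5, open squares for reference in Cy3) on wild-type arrays 1 to 4 for the 10 genes with the largest SD among named genes measured in both channels, with Ddx3y added. Xist and Ddx3y separate arrays 1 and 2 from arrays 3 and 4, and Ccl6, Wfdc17, Fcgr2b and Clec4d are highest on array 1 and lowest on array 3.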

How the data were processed

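Each array's scanner file holds, for each spot, a linear intensity in both dyes and a log10 ratio of Cy5 over Cy3, background-subtracted and dye-normalized by Agilent Feature Extraction 11.0.1.1, per the file headers (the submitters' processing notes name 10.7.3.1). The deposited series table of log2 ratios equalled the log10 ratios turned to log2 within 0.001 for 100% of values, so scale and direction are known. Its medians ran from 0.163 to 0.254 and no centring was found. Ratios were turned to log2, control and flagged spots were left out, and spots of a probe were averaged. Of 39429 probes, 26581 were named by 1 gene through RefSeq (GRCm38.p6) and 12848 by none. The probe with the highest mean signal of both channels stood for a gene.

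Tested genes were well above background on at least 3 of 4 arrays in either channel. Ratios were tested in limma 3.58.1 (R 4.3.3) with treat, a minimum log2 change of 1 and Benjamini-Hochberg adjustment, and the genotypes with lmFit and eBayes. With a channel at background on every array, "at least" folds set the dim side on each array to that probe's signal or to the dimmest signal passing as above background, whichever is larger, and are open to dye bias. Spike-in controls, observed against expected log ratio, had slopes of 0.961 to 0.982 on wild-type arrays. Their log2 intercepts were 0.57, 0.70, -0.24 and 0.75 on wild-type arrays 1 to 4. The spike-in ratios were thus offset by an amount that differed between arrays, and no correction for it was made. In simulated data for the reference comparison over 25194 genes, 48.0% of genes with a log2 ratio of 1.5 and 98.0% at 3 were recovered. Figures were drawn with matplotlib 3.10.9.

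Named genes were the 8 markers, the 20 highest and 20 lowest ratios, the 10 highest bounds each way, the 10 largest SDs, up to 6 higher and 4 lower called members of each list, and genes fixed by name. Not all are printed, and some results are not reported here. Members and lists were chosen with earlier results of these data known. Alternatives covered background and loess, centring, the series table, filters, probe choice, test, slide, replicate number and each array left out. The sample channel alone was added after seeing the data.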

Additional observations from a re-analysis of the deposited data

Results flagged for a closer look

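Of 211 named genes with 4 wild-type values, 8 had 1 array set apart from the other arrays by Dixon's test, which chance does for about 1 in 20 groups. The ratio in pool 3 was low for Id2 (4.02, others 4.44 to 4.44), Ifng (7.03, others 8.22 to 8.43) and Il6 (5.26, others 5.73 to 5.75). For Ifng and Il6 the centred Cy5 signal was also lowest in pool 3. For Id2 the centred Cy5 signal (8.67) and the centred Cy3 signal (4.57) were both highest in pool 3. The low Id2 ratio therefore does not show less Id2 in that pool. Pool 4 was high for Cavin2 (-6.94), Lck (-1.86) and Tmem176a (3.18) and low for Ltbr (-4.06). Pool 1 was low for Srebf2 (1.53). The Ifng values are ratios against a reference not above background.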

How the results depend on the processing

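The counts of genes higher or lower than reference stayed within 1.5 times the main count under centring, the series table, flagged spots kept, stricter or no filter, other probe choices and slide as a random block, whose correlation (-0.13) had to be estimated over all 7 arrays. Leaving out 1 wild-type array gave 7410 to 7500 calls. Under normexp and loess, which moved the median of all genes from 0.26 to 0.04, 2084 genes were higher. Without a minimum change 22011 genes were called (12900 higher, 9111 lower), and 3292 (1092 higher, 2200 lower) when the minimum was 2. Of 200 called named genes, 148 kept their call in every alternative and 50 lost it in some. With the probe of highest sample signal, Runx1 was 1.74 (called higher, adjusted p = 0.000877), Adamts2 0.22, Cd2 0.39 and Cd6 0.87. Xist was -0.89 as a median over probes, and Wfdc17 ran from -0.63 to 0.49 with 1 array left out (0.09 without array 2, 0.49 without array 3). For the samples labelled knockout against wild type, 1348 genes were called, 791 with no filter, 182 with slide as a block and 497 to 1008 with 1 array left out (763, 768 and 843 without wild-type array 2, 3 or 4, and 497 and 720 without array 2 or 3 of those labelled knockout). Samples with the same number deviated together only weakly (correlations 0.04, 0.12 and 0.06), so the numbers were not taken as pairs, and a replicate block over 6 arrays gave 388 calls. The causes were not tested. Dim probes limit the ratios: signals under 23.6 to 36.8 in Cy5 were not above background, and without a dye swap no probe's dye bias can be removed.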
